A study of Mus musculus with 6 samples.

Results

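The hemoglobin and erythroid genes described here were the 4 adult globin genes *Hba-a1*, *Hba-a2*, *Hbb-bs* and *Hbb-bt*, together with *Alas2*, *Bpgm* and *Slc4a1*. They are 7 of the 51826 genes in the tables and were selected by name on measured values of the same comparison, since the adult globins stood out in these libraries. Their difference between genotypes is therefore given as a description, without p-values, and counts of those past the study's thresholds are read against nothing but the share of all genes. Cortical RNA was sequenced in 3 libraries of *Lgmn*+/+-IR and 3 of *Lgmn*-/--IR mice, where *Lgmn* encodes the protease AEP. All mice were male BALB/c animals of 6 to 8 weeks, and all had received whole-brain irradiation with 10 Gy 3 days before the cortex was taken. The *Lgmn*-/- mice carried *Lgmn* flox/flox with Cre+, were derived from 1 targeted ES cell clone, and passed through a Flp+ generation, whereas the promoter of Cre is not given in the sources used here. Both groups were irradiated, and mice without irradiation were not analysed here. Whether blood was flushed from the brain before dissection is not given in the sources used here. Libraries of a genotype differed by more than sampling noise, the chi-square per gene averaging between 29.2 and 104.5, but the labels do not say whether each came from its own animal, so p-values measure the spread between these libraries.

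Hemoglobin is a tetramer of alpha- and beta-globin chains, each holding a heme group, and it carries oxygen in red blood cells. Mature mammalian red cells have no nucleus, and young ones, the reticulocytes, still carry globin mRNA that was made in their nucleated precursors. Globin transcripts are therefore a familiar sign of blood in RNA from a solid tissue, although low globin expression has also been described in neurons. Heme is built by a series of enzymes whose first step in erythroid cells is carried out by ALAS2. BPGM makes the phosphate that lowers the oxygen affinity of hemoglobin, and *Slc4a1* encodes band 3, the anion exchanger of the red cell membrane.

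Libraries held between 41874462 and 46829441 counts, with 5.68% to 9.43% of them on mitochondrial genes and the lowest share in *Lgmn*-/--IR replicate 2. *Lgmn* itself had 5558, 5528 and 5775 counts in *Lgmn*+/+-IR replicates 1, 2 and 3 and 3703, 3269 and 4109 counts in *Lgmn*-/--IR replicates 1, 2 and 3. Its log2 fold change was -0.64 (SE 0.12, adjusted p = 0.0315 with edgeR's quasi-likelihood test and Benjamini-Hochberg adjustment). Over the alternatives its adjusted p was at most 0.131. Gene-level counts do not show which part of *Lgmn* was lost. The cortical label fitted its markers, as 10 listed genes of neurons and glia summed to between 2666 and 3019 CPM in *Lgmn*+/+-IR and between 2715 and 3255 CPM in *Lgmn*-/--IR, led by *Slc17a7*, *Mbp* and *Gad1*. CPM are counts scaled to library size with TMM factors, and FPKM, as deposited, are also scaled by transcript length.

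The alpha-globin genes lie on chromosome 11 of GRCm38, with *Hba-a1* (ENSMUSG00000069919) at chr11:32283511-32284465 and *Hba-a2* (ENSMUSG00000069917) at chr11:32296489-32297298, both on the plus strand. The beta-globin genes lie on the minus strand of chromosome 7, with *Hbb-bs* (ENSMUSG00000052305) at chr7:103826534-103828096 and *Hbb-bt* (ENSMUSG00000073940) at chr7:103812524-103813996. *Alas2* (ENSMUSG00000025270) is at chrX:150547375-150570638, *Bpgm* (ENSMUSG00000038871) at chr6:34476207-34505613 and *Slc4a1* (ENSMUSG00000006574) at chr11:102348824-102366203. All 7 are annotated as protein-coding. The longest transcripts of *Hba-a1* and *Hba-a2* are 699 and 554 bases long and were identical at 99.81% of 538 aligned bases. Those of *Hbb-bs* and *Hbb-bt*, 628 and 703 bases, were identical at 93.12% of 625 aligned bases. How reads that fit both copies were counted is not given in the sources used here, so the values of a single copy are uncertain and the sum of a pair is the safer measure. *Hbb-bs* and *Hbb-bt* are the adult beta genes of the reference haplotype, whereas BALB/c mice carry the haplotype whose genes are named *Hbb-b1* and *Hbb-b2*. The tables analysed here have no row under those symbols.

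The sequences before the transcription starts are shown as a description, and whether they bear on the difference between genotypes was not tested. They are the 250 bases upstream of the RefSeq start (GRCm38.p6), written 5′ to 3′ along the gene. Capitals mark 4 motifs on either strand: TATAA of the core promoter, CCAAT of the box named after it, CACCC as bound by KLF factors, and GATAA as bound by GATA factors. Adjoining or overlapping matches run together.
Hba-a1, chr11:32283422-32283671, plus strand: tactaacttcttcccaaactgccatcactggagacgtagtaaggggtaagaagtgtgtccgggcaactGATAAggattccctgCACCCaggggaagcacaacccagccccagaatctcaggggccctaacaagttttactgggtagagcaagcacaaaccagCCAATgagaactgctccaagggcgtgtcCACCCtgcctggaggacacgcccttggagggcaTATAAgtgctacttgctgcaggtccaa
Hbb-bs, chr7:103827929-103828178, minus strand: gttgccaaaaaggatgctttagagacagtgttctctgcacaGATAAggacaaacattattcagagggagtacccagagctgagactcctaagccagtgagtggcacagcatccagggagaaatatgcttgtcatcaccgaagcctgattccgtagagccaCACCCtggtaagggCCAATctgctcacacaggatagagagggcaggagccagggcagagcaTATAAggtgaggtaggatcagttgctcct
Hbb-bt, chr7:103813924-103814173, minus strand: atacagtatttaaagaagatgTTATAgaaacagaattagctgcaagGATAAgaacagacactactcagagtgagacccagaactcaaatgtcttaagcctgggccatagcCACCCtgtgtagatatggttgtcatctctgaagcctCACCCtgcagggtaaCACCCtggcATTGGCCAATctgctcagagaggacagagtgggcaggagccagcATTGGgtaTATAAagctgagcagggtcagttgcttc
Alas2, chrX:150547167-150547416, plus strand: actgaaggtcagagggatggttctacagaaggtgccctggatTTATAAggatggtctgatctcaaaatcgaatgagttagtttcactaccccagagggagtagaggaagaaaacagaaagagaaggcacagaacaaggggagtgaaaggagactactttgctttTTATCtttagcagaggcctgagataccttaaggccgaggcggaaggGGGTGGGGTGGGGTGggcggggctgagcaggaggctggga
Bpgm, chr6:34476106-34476355, plus strand: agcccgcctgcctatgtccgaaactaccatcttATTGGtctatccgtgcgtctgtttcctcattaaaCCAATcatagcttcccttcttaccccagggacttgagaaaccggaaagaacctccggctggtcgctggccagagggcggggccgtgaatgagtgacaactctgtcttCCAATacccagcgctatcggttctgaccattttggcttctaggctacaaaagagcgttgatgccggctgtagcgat

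The window of *Hba-a2* (chr11:32296242-32296491, plus strand) shared an unbroken run of 247 bases with that of *Hba-a1* and held the same matches. The longest run shared by *Hbb-bs* and *Hbb-bt* was 14 bases. In *Hba-a1*, TATAA lay 27 to 23 bases before the start, CCAAT 88 to 84 bases before it, and CACCC at 60 to 56 and again at 167 to 163. In *Hbb-bs* the same 3 motifs lay at 29 to 25, 76 to 72 and 90 to 86. All 4 globin windows held each of the 4 motifs at least once, as did 0.968% of 32851 promoter windows. The alpha windows are nearly the same sequence, and nothing is read from this share. Single motifs were common, since TATAA was found in 22.8%, CCAAT in 33.8%, CACCC in 52% and GATAA in 22.6% of windows. The *Alas2* window held each motif except CCAAT, and its CACCC matches were 3 adjoining copies on the other strand. The *Bpgm* window held CCAAT at 3 places and none of the other letters. For several genes the GENCODE gene begins inside this window, so part of it may be transcribed. A match of letters is a description of the window and not a binding site.

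The adult globins were low in every *Lgmn*+/+-IR library and high in every *Lgmn*-/--IR library. *Hba-a1*, an alpha chain gene, had 144, 88 and 213 counts in *Lgmn*+/+-IR replicates 1, 2 and 3 and 39579, 30214 and 3977 counts in *Lgmn*-/--IR replicates 1, 2 and 3. *Hba-a2*, the second alpha gene, had 148, 83 and 179 counts against 22508, 15767 and 2438 counts in the same order. For both genes the genotypes did not overlap, and *Lgmn*-/--IR replicate 3 lay well below the other two *Lgmn*-/--IR libraries. *Hbb-bs*, an adult beta chain gene, had 194, 99 and 237 counts against 29776, 23698 and 3051 counts. *Hbb-bt*, its neighbor, had 58, 38 and 78 counts against 7847, 9711 and 681 counts. The beta genes followed the alpha genes in all but one place, in that *Hbb-bt* was highest in *Lgmn*-/--IR replicate 2 and not in replicate 1.

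Among the genes outside the globin family, *Alas2* moved with the globins. It had 14, 17 and 12 counts in *Lgmn*+/+-IR against 1243, 837 and 104 in *Lgmn*-/--IR replicates 1, 2 and 3, again without overlap and with replicate 3 lowest. *Slc4a1* was without counts in *Lgmn*+/+-IR, whereas *Lgmn*-/--IR replicates 1, 2 and 3 held 33, 56 and 2. Against a floor of 3 counts per library its *Lgmn*-/--IR mean was at least 9.67-fold higher, although replicate 3 itself did not exceed that floor. *Bpgm*, in contrast, had 2658, 2745 and 2873 counts in *Lgmn*+/+-IR against 3012, 3150 and 2541 in *Lgmn*-/--IR, and the genotypes overlapped. Its level in cortex thus did not follow the globin difference between genotypes, although it too was lowest in *Lgmn*-/--IR replicate 3.

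**Figure D1:**
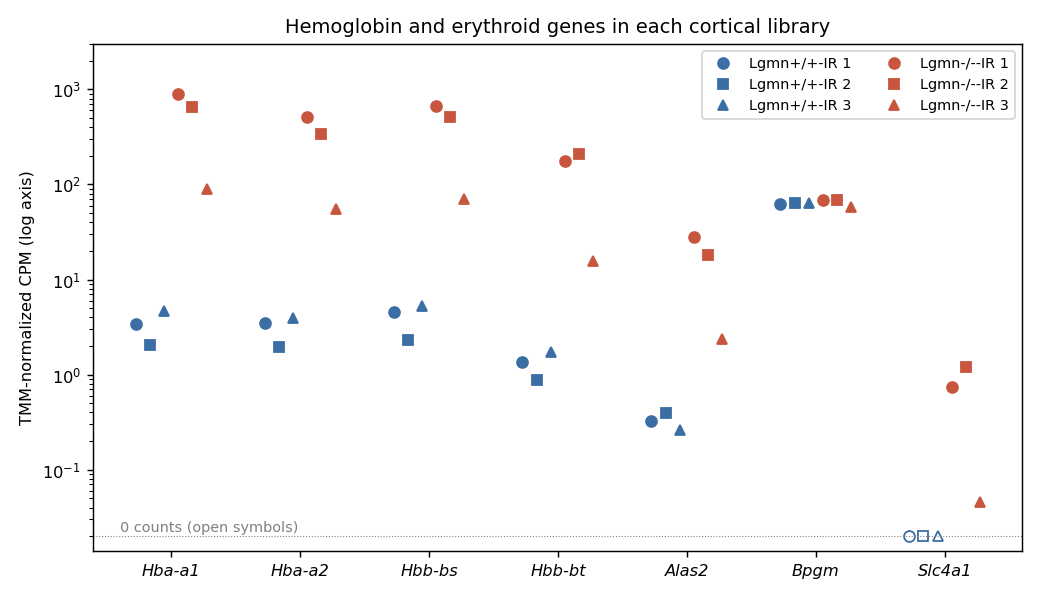
TMM-normalized CPM of the 7 genes on a log axis, with 1 point per library (blue, *Lgmn*+/+-IR; red, *Lgmn*-/--IR; circle, square and triangle for replicates 1, 2 and 3; open symbols, 0 counts). The 4 globins and *Alas2* were separated between genotypes with *Lgmn*-/--IR replicate 3 (red triangle) lowest of its group, whereas the *Bpgm* points overlapped.

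As TMM-normalized CPM, *Hba-a1* was 3.37 ± 1.31 in *Lgmn*+/+-IR against 544 ± 411 in *Lgmn*-/--IR (mean ± SD of 3 libraries). *Hbb-bs* was 4.02 ± 1.52 and 417 ± 311 CPM, *Hba-a2* 3.11 ± 1.05 and 301 ± 228 CPM, and *Hbb-bt* 1.32 ± 0.42 and 134 ± 104 CPM. The SD of *Lgmn*-/--IR was nearly as large as its mean, with replicate 3 far from the other libraries. The fitted log2 fold change was 7.33 (SE 0.93) for *Hba-a1*, 6.59 (SE 0.87) for *Hba-a2*, 6.69 (SE 0.91) for *Hbb-bs*, 6.66 (SE 1.01) for *Hbb-bt* and 5.60 (SE 0.93) for *Alas2*. *Bpgm* was 63.2 ± 0.904 and 64.5 ± 5.73 CPM, with a log2 fold change of 0.03 (SE 0.10). Of the 7 genes, 6 passed the filter on low counts, *Slc4a1* being left out, and 5 of these were higher by the study's thresholds (adjusted p under 0.05 and absolute log2 fold change over 1). Over all 18345 genes tested, 2.06% were differentially expressed genes (DEGs), 0.959% higher and 1.1% lower in *Lgmn*-/--IR. The *Lgmn*-/--IR libraries all lay above the *Lgmn*+/+-IR libraries for the same 5 genes, as for 12.4% of all genes tested. The 5 genes ranked between 11 and 26 of 18345 by log2 fold change, and the median of all genes was -0.01. Because the genes were chosen for this difference, nothing is read from these shares. The number of calls also changed with the library left out. Of the 7 genes, 2, 0 and 1 were past the thresholds without *Lgmn*+/+-IR replicates 1, 2 and 3. Without *Lgmn*-/--IR replicates 1, 2 and 3 the numbers were 5, 4 and 6. DEGs over all genes fell as well, from 377 to 249, 200 and 218 without *Lgmn*+/+-IR replicates 1, 2 and 3. They fell to 289, 326 and 244 without *Lgmn*-/--IR replicates 1, 2 and 3.

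The size of the difference depended on which *Lgmn*-/--IR library was taken. Summed over the 4 adult globins, *Lgmn*+/+-IR replicates 1, 2 and 3 had 12.8, 7.19 and 15.6 CPM, and *Lgmn*-/--IR replicates 1, 2 and 3 had 2245, 1710 and 231 CPM. These sums were 190-, 145- and 19.5-fold the *Lgmn*+/+-IR mean. The highest of them was 9.71 times the lowest, and the lowest of these libraries still lay far above the highest *Lgmn*+/+-IR library. *Hba-a1* was 264-, 193- and 26.9-fold its *Lgmn*+/+-IR mean in *Lgmn*-/--IR replicates 1, 2 and 3, and *Alas2* was 84.9-, 54.7- and 7.19-fold. Replicate 1 exceeded replicate 3 by 9.83-fold for *Hba-a1*, 9.12-fold for *Hba-a2*, 9.64-fold for *Hbb-bs*, 11.4-fold for *Hbb-bt* and 11.8-fold for *Alas2*. Replicate 2 exceeded replicate 3 by 7.18-, 6.11-, 7.34-, 13.5- and 7.61-fold for the same genes, so the range was wider there, with *Hbb-bt* highest. *Slc4a1*, at 2 counts in replicate 3, had ratios of 16.3 and 26.5 that rest on too few counts to compare. *Bpgm* differed by 1.17-fold between replicate 3 and either of the others. On the log2 scale the mean globin sum differed by 6.42 between genotypes and by 4.36 when *Lgmn*-/--IR replicate 3 alone was compared with the 3 *Lgmn*+/+-IR libraries. In bulk tissue, fewer cells of a type and less RNA per cell cannot be told apart, and this holds for red cells as well.

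Even at its highest, globin RNA took a small part of the library. The adult globins made up 0.00129%, 0.000736% and 0.00156% of all counts in *Lgmn*+/+-IR against 0.223%, 0.177% and 0.0217% in *Lgmn*-/--IR. By FPKM, which allows genes to be compared, *Bpgm* was the highest of the 7 genes in *Lgmn*+/+-IR with a mean level of 27.3 ± 2.13. The globins followed there at 5.75 ± 2.11 for *Hbb-bs*, 5.01 ± 1.65 for *Hba-a2*, 4.32 ± 1.64 for *Hba-a1* and 1.66 ± 0.518 for *Hbb-bt*. The first 3 of these overlapped between libraries, although their order was the same within each library. *Alas2* followed at 0.222 ± 0.158 FPKM, and *Slc4a1* was listed at 0. In *Lgmn*-/--IR the mean FPKM levels were 691 ± 523 for *Hba-a1*, 593 ± 444 for *Hbb-bs*, 481 ± 366 for *Hba-a2*, 170 ± 134 for *Hbb-bt*, 27.8 ± 5.92 for *Bpgm*, 7.32 ± 5.95 for *Alas2* and 0.129 ± 0.115 for *Slc4a1*. Among these the 4 globins overlapped between libraries. Ranked by mean FPKM among the genes tested, *Hba-a1* moved from the 48.6th percentile in *Lgmn*+/+-IR to the 99.8th in *Lgmn*-/--IR, and *Bpgm* stayed at 85.9 and 86.2.

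The order of the globins within a library differed between genotypes. In each *Lgmn*+/+-IR library the FPKM order was *Hbb-bs*, *Hba-a2*, *Hba-a1* and *Hbb-bt*, with 6.57, 5.60, 4.33 and 1.71 FPKM in replicate 1. In each *Lgmn*-/--IR library it was *Hba-a1*, *Hbb-bs*, *Hba-a2* and *Hbb-bt*, with 1116, 941, 802 and 220 FPKM in replicate 1 and 107, 93.5, 82.8 and 18.2 FPKM in replicate 3. *Hba-a1* thus changed its place while the other 3 genes kept their order.

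The balance of the alpha genes moved with this order. *Hba-a1* took 49.3% (95% CI 43.4 to 55.2, Clopper-Pearson), 51.5% (43.7 to 59.2) and 54.3% (49.3 to 59.4) of the alpha-globin counts in *Lgmn*+/+-IR replicates 1, 2 and 3. In *Lgmn*-/--IR it took 63.8% (63.4 to 64.1), 65.7% (65.3 to 66.1) and 62.0% (60.8 to 63.2). The groups did not overlap, and the share in *Lgmn*-/--IR replicate 3, where globin was lowest, was close to those of replicates 1 and 2. The difference of the means was 12.1 percentage points and ranged from 10.9 to 13.4 with each library left out in turn. Because the transcripts are nearly identical, the split between them depends on how reads were assigned, and the part of this in the difference was not tested. The intervals cover counting error only, and may be too narrow, because 55.8% of counts from 1 to 20 were even against 50.2% of counts above 100 and up to 1000.

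*Hbb-bs* took 77.0% (71.3 to 82.0), 72.3% (64.0 to 79.6) and 75.2% (70.1 to 79.9) of the beta-globin counts in *Lgmn*+/+-IR, against 79.1% (78.7 to 79.6), 70.9% (70.4 to 71.4) and 81.8% (80.5 to 83.0) in *Lgmn*-/--IR. Here the genotypes overlapped, and the *Lgmn*-/--IR libraries were farther apart than their counting intervals, with replicate 2 standing apart through its high *Hbb-bt*. The ratio of alpha to beta FPKM was 1.20, 1.30 and 1.29 in *Lgmn*+/+-IR against 1.65, 1.39 and 1.70 in *Lgmn*-/--IR. The ratio was higher in each *Lgmn*-/--IR library, and replicate 2 was again nearest to *Lgmn*+/+-IR.

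**Figure D2:**
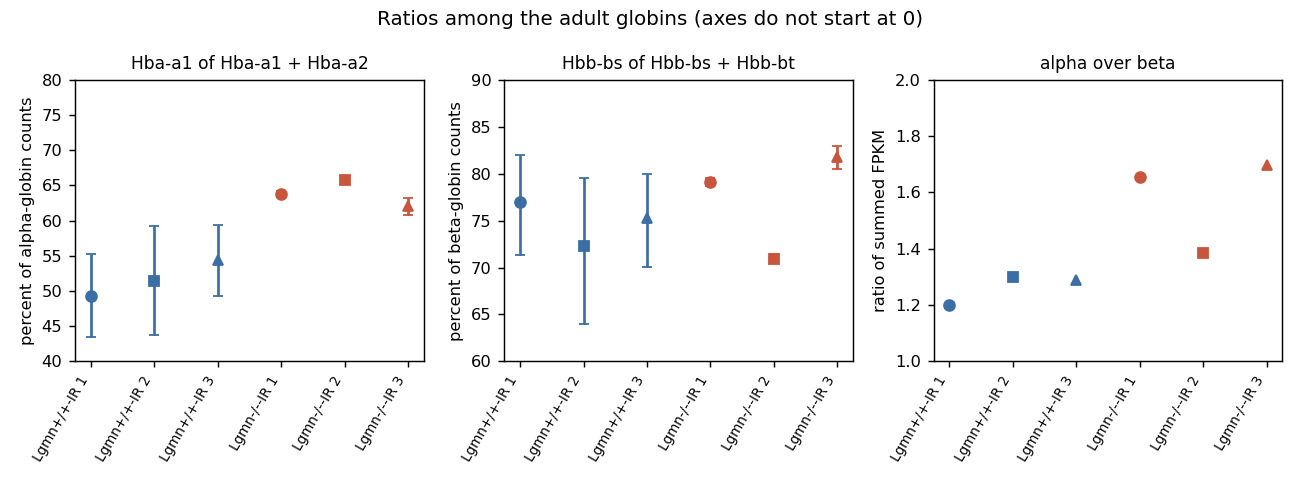
Share of *Hba-a1* in alpha-globin counts (left) and of *Hbb-bs* in beta-globin counts (middle), with 95% Clopper-Pearson intervals, and the ratio of summed alpha to summed beta FPKM (right), 1 point per library. The *Hba-a1* share was 49.3% to 54.3% in *Lgmn*+/+-IR and 62.0% to 65.7% in *Lgmn*-/--IR, whereas the *Hbb-bs* shares overlapped.

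*Alas2*, the erythroid heme enzyme, had a lower ratio to globin in each *Lgmn*-/--IR library than in each *Lgmn*+/+-IR library. Per 1000 adult globin counts there were 12.5 (95% CI 11.8 to 13.2), 10.5 (9.84 to 11.3) and 10.3 (8.38 to 12.4) *Alas2* counts in *Lgmn*-/--IR replicates 1, 2 and 3, although globin ranged over 9.71 times. In *Lgmn*+/+-IR there were 25.7 (14.1 to 42.8), 55.2 (32.5 to 86.9) and 17.0 (8.80 to 29.5). Among the *Lgmn*+/+-IR libraries, replicate 2 had the least globin and the most *Alas2* counts, so the 2 measures did not run together there, at 12 to 17 *Alas2* counts per library. *Slc4a1* had 0.331, 0.705 and 0.197 counts per 1000 adult globin counts in *Lgmn*-/--IR replicates 1, 2 and 3, the last from 2 counts.

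Other red cell genes were set beside these in 5 lists, of globin family, heme synthesis, red cell membrane, erythroid regulator and reticulocyte genes. Of 82 genes listed 78 were in the tables and 56 were tested, and edgeR's quasi-likelihood test called 0 of them a DEG, where 2.06% of all genes were called. DESeq2 called 3 and limma-voom 0, where they called 593 and 374 of all 18345 genes tested. An unadjusted p under 0.05 was found for 15 of the 56, beside 18.6% of all genes tested. Adjusted p was under 0.05 for 2 of the 56, as for 3.33% of all genes tested, and the median log2 fold change was 0.02 against -0.01 over all genes. The highest log2 fold change among the 56 was 2.24, for *Isg20*, and the lowest was -0.70, for *Tfrc*.

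Within the globin family, the theta-like genes *Hbq1a* and *Hbq1b* showed low counts. *Hbq1a* had 10, 7 and 17 counts in *Lgmn*+/+-IR against 35, 52 and 36 in *Lgmn*-/--IR, a log2 fold change of 1.81 (SE 0.38, adjusted p = 0.0527 with edgeR). Its *Lgmn*-/--IR libraries were alike, without the low value of replicate 3 seen for the adult globins. The embryonic globins *Hbb-y*, *Hbb-bh1* and *Hba-x*, and also *Hbb-bh0*, *Hbb-bh2* and *Hbb-bh3*, had no count in any library. *Cygb* and *Ngb*, the globins of nonerythroid and nerve cells, were at 68.6 ± 6.95 and 6.10 ± 3.34 CPM in *Lgmn*+/+-IR against 76.2 ± 3.89 and 8.57 ± 2.15 in *Lgmn*-/--IR.

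Of the 14 heme synthesis genes, 1 had an adjusted p under 0.05. *Alad*, which encodes the enzyme after ALAS in the pathway, had 1017, 1162 and 1092 counts in *Lgmn*+/+-IR against 2122, 2149 and 2063 in *Lgmn*-/--IR. It rose by a log2 fold change of 0.91 (SE 0.09, adjusted p = 0.00348 with edgeR), below the fold threshold for DEGs. The 3 *Lgmn*-/--IR libraries were nearly equal, so *Alad* did not follow the spread of globin among them. *Alas1*, the housekeeping form of ALAS, was at 50.8 ± 2.33 and 51.3 ± 4.39 CPM, and *Fech*, which inserts iron in the last step, at 60.2 ± 2.91 and 54.0 ± 5.48 CPM. The median log2 fold change of the list was -0.05.

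Red cell membrane genes were led by members that neurons also express, *Dmtn* at 300.1 ± 42.2 and 357 ± 55.7 CPM, *Add2* at 308 ± 22.8 and 269.8 ± 10.2 CPM and *Sptb* at 236 ± 32.0 and 238 ± 3.35 CPM. Of this list 12 of 18 genes were tested, with a median log2 fold change of -0.03. Of the genes closer to red cells that were too low to test, *Rhag* had no count, and *Epb42*, *Rhd* and *Kel* had at most 4 counts in any library.

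Of the 17 erythroid regulators in the tables, 10 were tested and 7 were too low to test. *Gata1* and *Gfi1b*, transcription factors of nucleated erythroid precursors, had no count in any library, which allows up to 3 counts per library at this depth. *Klf1*, the activator of the adult beta-globin gene, had 4, 9 and 4 counts in *Lgmn*+/+-IR against 4, 7 and 6 in *Lgmn*-/--IR, so it did not separate the genotypes. *Trim10*, an erythroid ring finger gene, had 2, 4 and 0 counts against 18, 38 and 6. The tested regulators had a median log2 fold change of 0.09 and were led by *Ldb1*, *Bcl11a* and *Eif2ak1*, which are also expressed in brain, at 97.9 ± 6.15, 88.8 ± 1.76 and 68.0 ± 1.16 CPM in *Lgmn*+/+-IR against 111.8 ± 13.7, 106 ± 15.0 and 82.8 ± 5.91 in *Lgmn*-/--IR.

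Among the reticulocyte genes 15 of 17 were tested, with a median log2 fold change of 0.08. *Ube2l6*, a ubiquitin and ISG15 conjugating enzyme found in reticulocytes and also induced by interferon, had 194, 196 and 214 counts in *Lgmn*+/+-IR against 469, 425 and 349 in *Lgmn*-/--IR. *Ube2l6* rose by 1.00 on the log2 scale (SE 0.15, adjusted p = 0.0151 with edgeR), just under the fold threshold, and without *Lgmn*+/+-IR replicate 1, 2 or 3 the adjusted p was 0.0510, 0.0835 or 0.0650. *Isg20*, an exonuclease gene likewise induced by interferon, had 13, 23 and 13 counts against 94, 120 and 28, with a log2 fold change of 2.24 (SE 0.56, adjusted p = 0.0868 with edgeR). The adjusted p of *Isg20* with edgeR was 0.0281 without *Lgmn*-/--IR replicate 3, but between 0.148 and 0.236 without any other library. *Isg20* was higher in *Lgmn*-/--IR replicates 1 and 2, which had the most globin, but its fold over *Lgmn*+/+-IR was 5.63, 6.88 and 1.70 where that of the globin sum was 190, 145 and 19.5. *Tfrc*, the transferrin receptor by which erythroid and other cells take up iron, had a log2 fold change of -0.70 (SE 0.15, adjusted p = 0.0614 with edgeR). *Rnf10* and *Car2*, among the genes of highest CPM in this list, are abundant in brain and were at 219 ± 16.3 and 159 ± 14.3 CPM in *Lgmn*+/+-IR against 224 ± 24.3 and 200.9 ± 18.6 in *Lgmn*-/--IR.

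**Figure D3:**
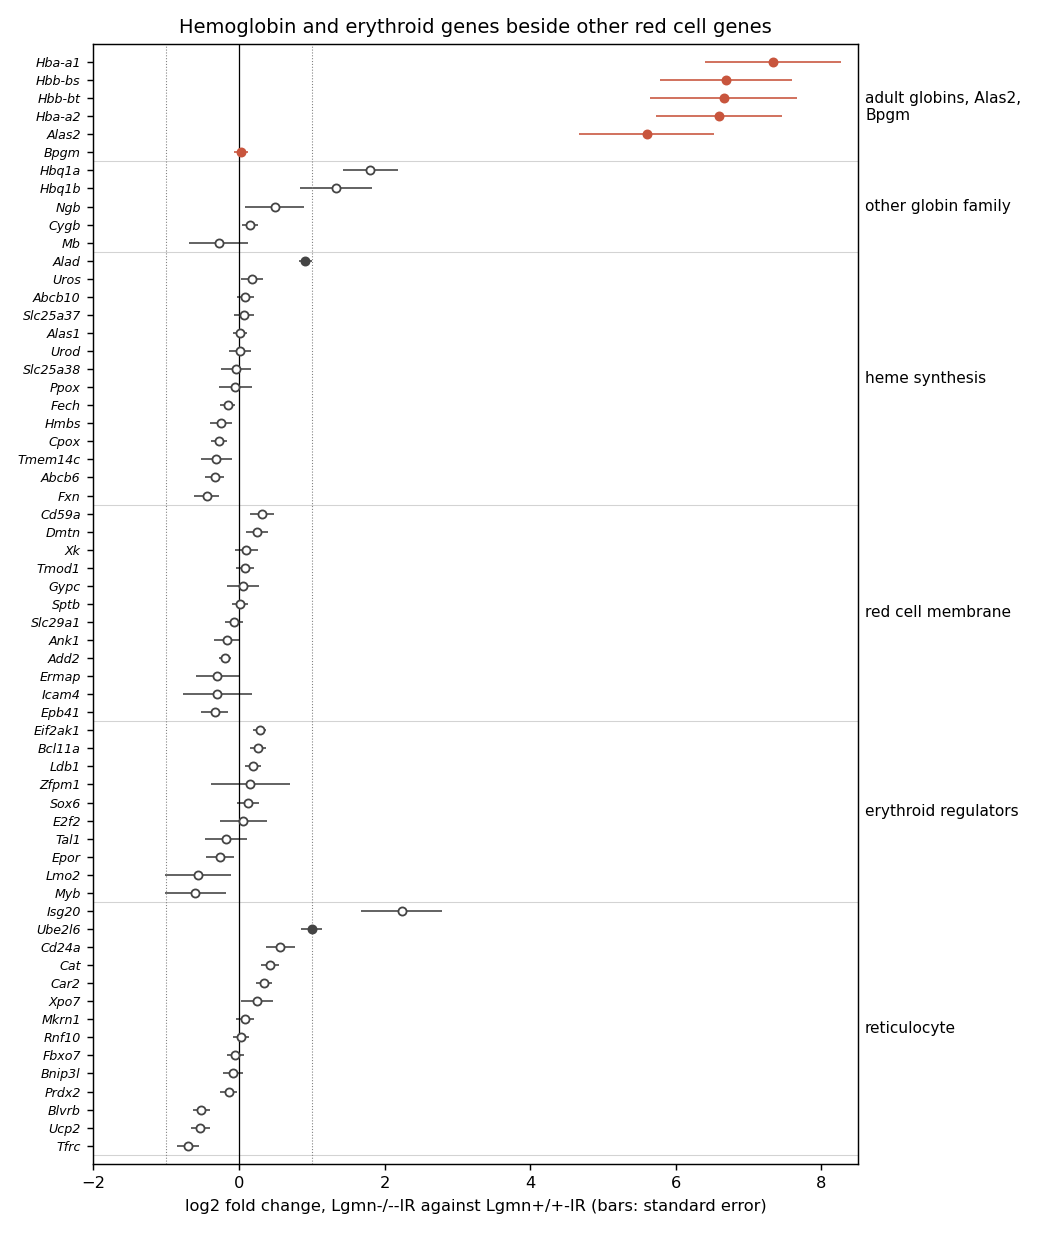
Fitted log2 fold change (*Lgmn*-/--IR against *Lgmn*+/+-IR) with its standard error for tested genes of each list; the adult globins, *Alas2* and *Bpgm* in red, other genes in gray (filled, adjusted p under 0.05; open, not), dotted lines at the fold threshold. The globins and *Alas2* lay between 5.60 and 7.33, while *Alad* (0.91) and *Ube2l6* (1.00) were the filled points of the other lists.

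**Figure D4:**
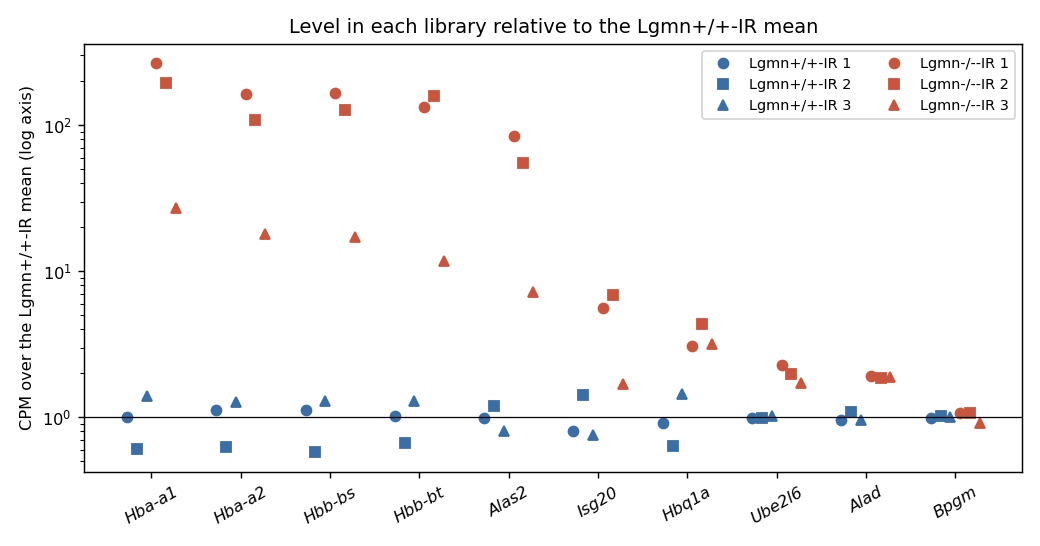
CPM of each library over the *Lgmn*+/+-IR mean of the gene, on a log axis, for the globins, *Alas2*, 4 other red cell genes and *Bpgm*. *Lgmn*-/--IR replicate 3 (red triangle) fell far below replicates 1 and 2 for the globins, *Alas2* and *Isg20*, but not for *Hbq1a* or *Alad*.

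Markers of other blood components were examined beside the globins, since whole blood also brings platelets and leukocytes. The 7 neutrophil genes listed, *S100a8*, *S100a9*, *Ngp*, *Camp*, *Ltf*, *Retnlg* and *Lcn2*, summed to 10, 13 and 18 counts in *Lgmn*+/+-IR and to 246, 18 and 6 counts in *Lgmn*-/--IR replicates 1, 2 and 3. Only *Lgmn*-/--IR replicate 1 stood out, mostly through 157 counts of *Lcn2*, which brain cells can also express. *S100a9*, *S100a8*, *Ngp*, *Retnlg* and *Ltf* were also highest in replicate 1, at 32, 23, 12, 10 and 8 counts. Replicate 2 had nearly as much globin and a neutrophil sum within the *Lgmn*+/+-IR range. The T cell genes *Cd3d* and *Cd3e*, the B cell gene *Ms4a1*, *Nkg7* and *Elane* had no count in any library. *Trac*, another T cell gene, had 10, 7 and 8 counts in *Lgmn*+/+-IR against 11, 18 and 21 in *Lgmn*-/--IR (log2 fold change 0.95, SE 0.40, adjusted p = 0.266 with edgeR), higher in each *Lgmn*-/--IR library by CPM. *Cd79a*, another B cell gene, was at 0.477 ± 0.169 and 0.524 ± 0.199 CPM. Among the 12 platelet genes, 8 were tested with a median log2 fold change of -0.51. *Gp1bb*, *Itga2b* and *Gp5* had the highest level in this list, with 30.8 ± 9.05, 2.43 ± 0.113 and 1.70 ± 0.108 CPM in *Lgmn*+/+-IR against 22.1 ± 13.8, 2.34 ± 0.332 and 1.07 ± 0.261 in *Lgmn*-/--IR. Whether their counts came from platelets was not tested. *Pf4*, a platelet chemokine, had 18, 35 and 21 counts against 31, 45 and 19, and *Ppbp* 0, 6 and 0 against 10, 8 and 0. *Gp9* had 4, 8 and 8 counts against 14, 39 and 12 (log2 fold change 1.63, SE 0.57, adjusted p = 0.195 with edgeR). In contrast, *Treml1* had 25, 18 and 22 against 4, 0 and 0 (-3.94, SE 0.85, adjusted p = 0.0577 with edgeR). The adjusted p of *Treml1* with edgeR was 0.0290 without *Lgmn*-/--IR replicate 1, but between 0.104 and 0.174 without any other library. Platelet markers thus pointed in both directions and none passed the test with edgeR. How far residual blood, circulating reticulocytes or another source entered the globin difference was not tested.

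Across the blood and vessel marker lists (leukocytes, platelets, vessel wall, choroid plexus and meninges), 36 of 56 genes were tested. Of these 0 were DEGs higher and 1 was a DEG lower in *Lgmn*-/--IR, beside 0.959% and 1.1% of all genes tested. DESeq2 and limma-voom each called 2, where they called 593 and 374 of all 18345 genes tested. An unadjusted p under 0.05 was found for 11 of the 36, beside the same 18.6% of all genes tested. The DEG was *Ly6c2*, a monocyte surface gene, with 287, 529 and 371 counts in *Lgmn*+/+-IR against 43, 35 and 45 in *Lgmn*-/--IR (log2 fold change -3.31, SE 0.28, adjusted p = 0.00152 with edgeR). *Ly6c2* has a close paralog in *Ly6c1*, which is expressed by endothelium, and the sum of both was 28.7 ± 9.39 CPM in *Lgmn*+/+-IR against 30.7 ± 5.82 in *Lgmn*-/--IR, so reads split between them leave the single value uncertain. The 15 vessel wall genes summed to 341, 447 and 409 CPM in *Lgmn*+/+-IR against 495, 318 and 440 in *Lgmn*-/--IR. These sums did not separate the genotypes, while the median log2 fold change of the list was 0.38, with 0 DEGs. *Lgmn*-/--IR replicate 2, with 145-fold globin, had the lowest vessel sum of all 6 libraries. Their highest genes were *Rgs5* at 104 ± 12.6 and 81.3 ± 20.3 CPM, *Flt1* at 50.5 ± 8.91 and 65.8 ± 15.7 CPM, and *Slco1a4* at 49.6 ± 7.44 and 27.3 ± 6.10 CPM. The 10 choroid plexus and meninges genes summed to 98.4, 122 and 89.2 CPM against 129.6, 154 and 129.3 CPM, led by *Igf2* at 31.6 ± 3.00 and 51.7 ± 11.6, *Ttr* at 28.6 ± 12.4 and 28.6 ± 7.69, and *Dcn* at 12.3 ± 4.35 and 20.1 ± 2.59 CPM. Each *Lgmn*-/--IR sum was above each *Lgmn*+/+-IR sum in this list, but its genes went both ways. By CPM, 3 of the 10 genes lay wholly higher in *Lgmn*-/--IR and 2 wholly lower, beside 2275 and 2435 of all 18345 genes tested. The lower ones were *Folr1* (log2 fold change -0.93, SE 0.44) and *Otx2* (-1.84, SE 0.68), both at low counts. *Slc6a13* rose by 0.68 on the log2 scale (SE 0.12, adjusted p = 0.0275 with edgeR). That call was lost without any 1 of the libraries, with adjusted p between 0.0547 and 0.140. The part of meningeal or choroid tissue in the globin difference was not tested.

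Of 10 genes that take up and clear hemoglobin, heme and iron, 8 were tested, with a median log2 fold change of -0.09, and 1 had an adjusted p under 0.05. *Hmox1*, the inducible enzyme that opens the heme ring, had 390, 279 and 285 counts in *Lgmn*+/+-IR against 334, 321 and 378 in *Lgmn*-/--IR, and the genotypes overlapped. The ferritin chains *Fth1* and *Ftl1* were at 2166 ± 246 and 152 ± 2.58 CPM in *Lgmn*+/+-IR against 2183 ± 11.1 and 159.6 ± 42.4 in *Lgmn*-/--IR. *Lrp1*, the receptor for hemopexin-bound heme, was at 506 ± 14.1 and 444 ± 26.5 CPM. *Slc40a1*, the iron exporter ferroportin, had 384, 449 and 510 counts in *Lgmn*+/+-IR against 241, 273 and 259 in *Lgmn*-/--IR and fell by 0.83 on the log2 scale (SE 0.13, adjusted p = 0.0219 with edgeR). Its adjusted p was 0.108 without *Lgmn*+/+-IR replicate 2, 0.0883 without *Lgmn*+/+-IR replicate 3, and 0.0741, 0.0512 and 0.0698 without *Lgmn*-/--IR replicates 1, 2 and 3.

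The genes most like the globin sum were sought among 15013 genes of at least 1 CPM, by Pearson's r of log2 CPM over the 6 libraries. They were *Fam188b2-ps*, *Lyplal1*, *Rpl10-ps3*, *Perm1*, *Gm37226*, *S100a10*, *Ube2l6* and *Hdhd3*, with r from 0.983 to 0.996. For comparison r was 0.993 for *Hbb-bt*, 0.975 for *Alas2*, 0.890 for *Slc4a1* and 0.443 for *Bpgm*. With 6 points in a pair of genotype clusters that share their libraries, such values are a description of order, and the likeness held over changes of unequal size, as *Rpl10-ps3* went from 108, 104 and 117 counts to 135, 141 and 122. With the genotype means subtracted the closest genes were *Ube2v2*, *Zfp968*, *Cep83os*, *AC152827.1*, *Ngef*, *2310009B15Rik*, *Plgrkt* and *Tmbim4*, with r from 0.988 to 0.999. None of these was shared by the lists of both measures. *Bpgm*, with 0.900 on this second measure, was somewhat lower in the low-globin *Lgmn*-/--IR replicate 3.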

How the data were processed

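RNA of whole cortex was sequenced after poly(A) selection. Trimmomatic 0.36 for trimming, HISAT2 for mapping and StringTie for expression were the authors' tools, and GRCm38 is the build in the submitters' processing notes. The authors deposited raw counts per gene, without normalization, and FPKM, which are scaled by transcript length and depth. The counter, its strand setting and its treatment of reads with several positions are not given in the sources used here. Of 51826 gene IDs, 51633 were found in GENCODE M21, which gave positions and transcripts.

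The count test was edgeR 4.0.16 under R 4.3.3 (filterByExpr, TMM, quasi-likelihood test with genotype as the factor, Benjamini-Hochberg adjustment), which left 18345 genes. This replaced the authors' limma step because raw counts were at hand. CPM are given as mean ± SD over 3 libraries. Alternatives used DESeq2 1.42.0, limma-voom, and limma 3.58.1 on log2 FPKM after adding 1 or 0.1 and a mean FPKM minimum of 0.1, also other scalings and filters, a replicate block and the omission of each library. On simulated counts for this comparison with 200 of 18345 genes changed, edgeR called 84.5% of them with 0 sign errors, and unchanged genes made up 5.59% of the calls.

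The genes and gene lists were chosen with earlier results of these data known. Genes named are the 7 hemoglobin and erythroid genes, *Lgmn*, DEGs of the lists, the 3 genes of highest mean CPM in each list and the 8 genes most like the globin sum on each of the measures. Other genes were named after their values were seen, and a few listed genes are not reported here. Intervals are exact binomial (SciPy 1.17.1), the depth of over 41874462 counts per library makes 3 counts the floor, and since no molecular identifiers were used, reads are not independent molecules and intervals cover counting error only. Transcripts were aligned with Biopython 1.88. Promoter windows were found for 6 of the 7 genes in RefSeq.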

Additional observations from a re-analysis of the deposited data

How the results depend on the processing

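The counts past the thresholds depended on the test and on single libraries. Of the 7 genes, 5 were past them with edgeR, 3 with limma-voom, 1 with limma on log2(FPKM + 1) without a filter, and from 0 to 6 with each library left out, where 0 remained without *Lgmn*+/+-IR replicate 2 and 6 without *Lgmn*-/--IR replicate 3. DEGs over all genes numbered 377, against 593 with DESeq2, 174 with limma on log2(FPKM + 1), 144 with the latter unfiltered, and 200 to 326 with each library left out. Of the other erythroid genes 1 was called with DESeq2's size factors, without a count filter, or with library sizes without the 7 genes (*Ube2l6* in each), 1 on log2(FPKM + 0.1) (*Hbq1a*), 3 with DESeq2, and 0 to 2 with each library left out. Blood and vessel genes called numbered 2 with DESeq2 and with limma-voom, 3 on log2(FPKM + 0.1), and 1 to 2 with each library left out. Each fold change of the adult globins and *Alas2* stayed positive in all 15 alternatives, from 2.37 for *Alas2* on log2(FPKM + 1) to 7.84 for *Hba-a1*. *Bpgm* changed sign without *Lgmn*-/--IR replicate 1 (-0.0059) and replicate 2 (-0.0039) and ranged from -0.0059 to 0.1035 with each library left out. The log2 difference of the globin sum was 5.80 to 7.44 with each library left out and 4.36 with *Lgmn*-/--IR replicate 3 alone, the latter chosen after seeing the data. The *Hba-a1* share differed by 10.9 to 13.4 points, the *Hbb-bs* share by 0.21 to 5.62 points and the ratio of alpha to beta by 0.257 to 0.413 with each library left out. *Ly6c2* was called and *Alad* had an adjusted p under 0.05 in all 15 alternatives. Where a library was left out, the cause of a lost call was not tested. *Slc4a1*, *Trim10* and the neutrophil genes were below the count filter, so depth limits what they show.

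Replicate numbers are shared by both genotypes, but same-numbered libraries come from mice of different genotypes. The deviations of same-numbered libraries correlated at -0.252, -0.0464 and -0.0276, so the numbers were not taken to pair the samples. With the replicate number as a block, 139 DEGs were called, 0 of the 7 genes among them.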
